A study of Mus musculus with 3 samples.

Results

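The genes described here encode the machinery that acidifies, supplies and sorts cargo to the lysosome, and were chosen by symbol: vacuolar proton pump subunits (Atp6v, Atp6ap), hydrolases (the cathepsins, Cts with 1 further letter), lysosome-associated membrane proteins (Lamp1, Lamp2 and Lamp3), and the Vps, Chmp, adaptor (Ap1, Ap2, Ap3) and sorting nexin (Snx) families. Of 64 such genes with a spot of their own on the platform, 43 had a value on all 3 arrays, among 3462 genes measured that way in all. These 43 comprised 6 proton pump genes, 7 hydrolases (all cathepsins), 1 lysosomal membrane gene (Lamp2) and 29 sorting genes. The rule itself uses no measured ratio, only the symbol and whether a value was present. It was set, however, with earlier results of these data known. Another 10 genes had at most 2 values per spot, 6 had 1, and 5 had none: Atp6v0e2, Chmp4c and the cathepsins Ctsj, Ctsr and Ctsw.

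Bone marrow RNA of castrated C57BL/6 mice carrying pellets of testosterone was set against RNA of matched castrated mice carrying placebo pellets, on 3 two-colour spotted arrays (T1, T2 and T3), 1 pair of mice to an array (n = 3 pairs). All mice had been castrated at 7 weeks of age and were 17 weeks old at collection, and the pellets (12.5 mg, releasing over 60 days) were worn for 4 weeks. Cy5 marked the testosterone cDNA of T1 and T3, and Cy3 that of T2, so dye orientation and pair T2 cannot be told apart. The RNA came from pulverized femora, tibiae and humeri, a mixture of cell types, in which fewer cells of a type and less RNA per cell cannot be told apart.

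Each value is taken to be a log2 ratio, positive where testosterone exceeded placebo. This direction is likely only, since it follows from the study calling testosterone its experimental channel, and the base of the log was deduced from how far the values reach (-3.37 to 4.47). Of 11552 spots, T1 has a value for 9007, T2 for 6771 and T3 for 6982. A ratio carries no level, so neither the abundance of these transcripts nor the labelled tissue could be checked against the signal of marker genes, and signal over background was not analysed here. Markers of several marrow cell types did give values on all arrays, among them 7 B-lineage, 6 erythroid, 7 monocyte and macrophage, 4 neutrophil and 5 osteoclast genes, together with 6 of skeletal muscle.

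As background, the lumen of lysosomes and late endosomes is acidified by the vacuolar ATPase, a rotary pump in which a cytosolic V1 sector hydrolyses ATP and a membrane V0 sector carries protons. Cathepsins are proteases, most of which work in that acid lumen. Clathrin adaptors, retromer, sorting nexins and the ESCRT complexes select membrane cargo for recycling or for delivery to the lysosome. In bone the same pump sits on the ruffled border of osteoclasts and acidifies the resorption pit, and macrophages of the marrow use lysosomes to digest engulfed red cell nuclei.

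For no lysosomal, pump or sorting gene did the test find a difference between testosterone and placebo beyond the spread between pairs. By limma over all 3462 genes, adjusted by Benjamini-Hochberg at a threshold of 0.05, 0 of the 43 rose and 0 fell, against a background of 4.91% of all genes called (1.68% higher and 3.24% lower). The lowest adjusted p among the 43 was 0.0878, for the protease Ctsb. At an unadjusted p under 0.05 there were 9 (20.9%), 3 above and 6 below 0, where 28.1% of all genes met that criterion (12% above and 16.1% below 0). The means ran from -0.32 (Vps25) to 0.34 (Ctsb), so that the largest size was 1.27-fold. The median of the 43 was -0.069 and that of all genes -0.071.

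These null calls bound the change of each gene singly rather than show equality. The 95% interval of a member's mean reached, at the median, 0.25 to either side on the log2 scale. The farthest bound of any of the 43 lay at -0.59 (Vps25). Each interval holds for 1 gene and is not adjusted for the number of genes, so the 43 are not bounded jointly. For contrast, 6 of 7 B-lineage markers on the same arrays fell, with list medians of -2.14, -2.24 and -1.65 for T1, T2 and T3.

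**Figure D1:**
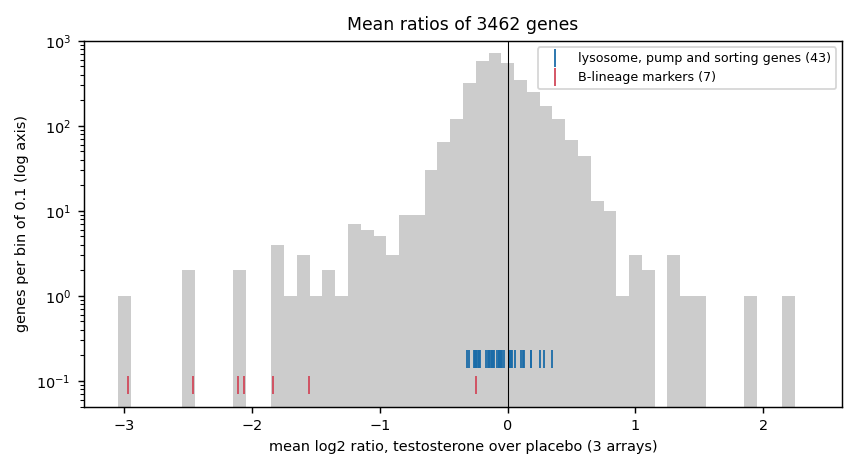
Histogram of the mean log2 ratio of testosterone over placebo (x axis) for 3462 genes in bins of 0.1 (y axis, number of genes, log scale), with ticks for the 43 lysosome, pump and sorting genes (upper row) and 7 B-lineage markers (lower row). The 43 ticks lie between -0.32 and 0.34, within the bulk of all genes, while 6 of the 7 B-lineage markers lie at -1.56 or below.

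The arrays did not show the 43 genes alike. Their medians for T1, T2 and T3 were 0.0090, -0.20 and -0.041, beside -0.038, -0.12 and -0.055 for all genes. On T1 22 of the 43 were above 0 (51.2%), on T3 17 (39.5%) and on T2 only 7 (16.3%), where the shares of all genes were 43.9%, 40.3% and 36.8%. T2 gave the lowest of the 3 values for 31 of the 43 (72.1%), against 44% of all genes. Without T2 the median of the 43 was -0.024. The same sign on every array was seen for 16 of the 43 (37.2%), 3 above and 13 below 0, whereas 52% of all genes kept 1 sign (18.1% above and 33.9% below 0). Across the 43 genes the values correlated by 0.57 between T2 and T3, 0.32 between T1 and T2 and 0.16 between T1 and T3, a description across genes that share the same 3 hybridizations.

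**Figure D2:**
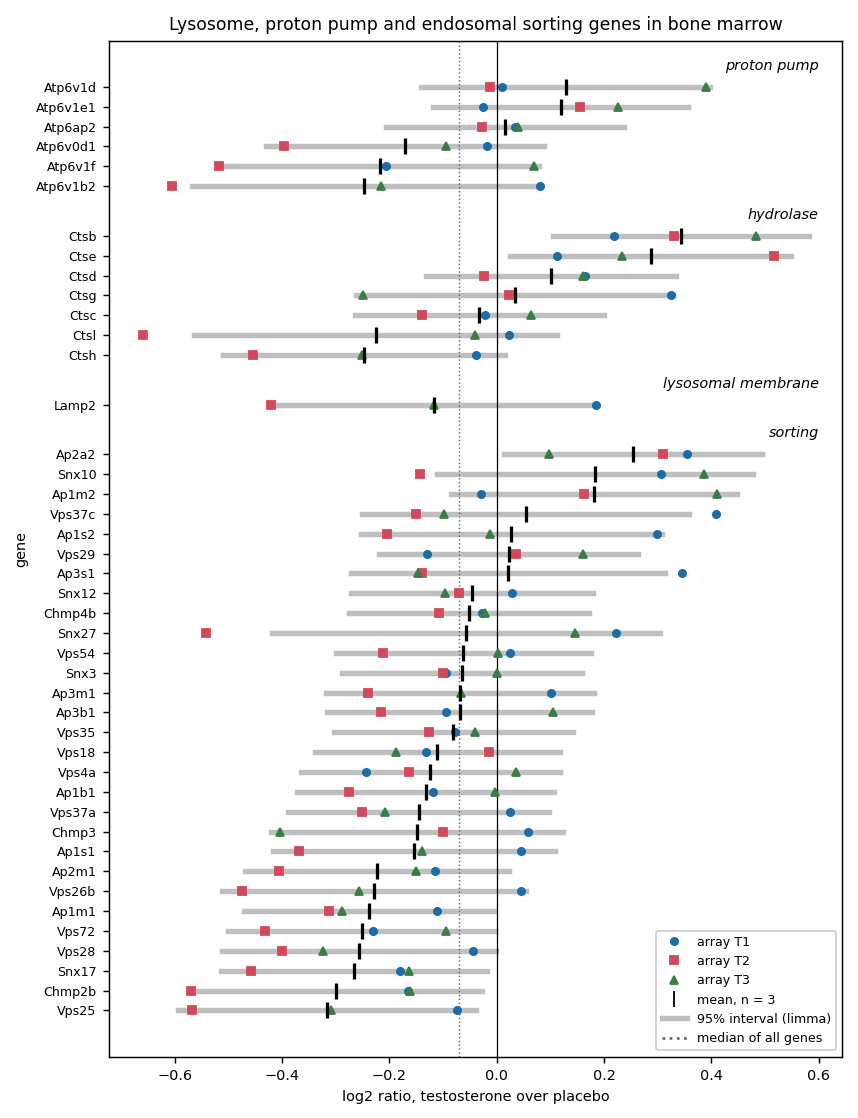
Log2 ratio of testosterone over placebo (x axis) of each of the 43 genes (y axis, grouped by class and ordered by mean) on arrays T1, T2 and T3, with the mean and its 95% interval from limma. Values of T2 stand at the left for 31 of the 43 genes, and the intervals of 9 genes, led by Ctsb and Vps25, leave out 0 before adjustment for multiple tests.

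Many lysosomal genes carry an element with the core CACGTG near their start, to which the transcription factor TFEB is known to bind. Promoter windows from RefSeq (assembly GRCm38.p6, 250 bases before to 50 after the start, both strands covered since the motifs are palindromes) were found for 32 of the 43 genes. The core CACGTG occurred in 5 of them (Ap1s2, Ap2m1, Atp6v0d1, Ctsd and Ctsl), in 5 of their 36 windows and in 7.15% of all 32851 windows. The longer form TCACGTGA, which contains the core, occurred in Atp6v0d1 and Ctsd and in 0.974% of all windows. Both are printed on the strand of the gene, from 250 bases before the start, with core and longer matches in capitals: Ctsd at chr7:142387828-142388077, minus strand, and Atp6v0d1 at chr8:105566061-105566314, minus strand, the latter running on 4 bases past the start to the end of its match.
Ctsd: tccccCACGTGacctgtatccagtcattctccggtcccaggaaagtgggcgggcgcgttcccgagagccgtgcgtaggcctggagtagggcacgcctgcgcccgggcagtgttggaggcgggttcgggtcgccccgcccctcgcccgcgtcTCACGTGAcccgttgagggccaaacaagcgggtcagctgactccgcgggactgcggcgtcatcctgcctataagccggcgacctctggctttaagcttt
Atp6v0d1: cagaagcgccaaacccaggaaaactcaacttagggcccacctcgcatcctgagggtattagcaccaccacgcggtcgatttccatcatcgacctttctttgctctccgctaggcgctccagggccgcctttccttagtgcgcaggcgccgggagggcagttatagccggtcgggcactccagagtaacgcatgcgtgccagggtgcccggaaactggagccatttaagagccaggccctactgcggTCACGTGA
In Ctsd the core match begins 245 and the longer match 99 bases before the start, and in Atp6v0d1 the match begins 4 bases before it. The 5 genes with a core match had means from -0.23 (Ctsl) to 0.10 (Ctsd), with a median of -0.17, and the other 27 a median of -0.065. A match describes these letters and not a bound site.

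Among the 6 proton pump genes 0 rose and 0 fell, against 4.91% of all genes called. None had an unadjusted p under 0.05, against 28.1% of all genes. Of the 6 means 3 lay above and 3 below 0, where 62.4% of all genes had a mean below 0. The median of the pump genes was -0.077, and array by array (T1, T2, T3) it was -0.0050, -0.21 and 0.055. Without T2 the median of the pump means was -0.010, and over single spots it was 0.016. The wide range on T2, from -0.61 to 0.16, was not seen on T1, where 5 of the 6 lay within 0.081 of 0.

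Of the V1 sector, Atp6v1b2, the nucleotide-binding B subunit of the catalytic head, read 0.081 on T1, -0.61 on T2 and -0.22 on T3 (mean -0.25 ± 0.34, SD, n = 3; limma adjusted p = 0.279). It was above 0 in the first pair and below in the other two. Without T1 its mean was -0.41 and it passed (adjusted p = 0.0391), in a fit that called 18% of all genes. Atp6v1f, a subunit of the rotating central stalk, had -0.21, -0.52 and 0.069 (mean -0.22 ± 0.29, adjusted p = 0.298), with T3 on the other side of 0.

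The remaining V1 genes stood above 0 on average. Atp6v1d, also of the central stalk, had 0.0090 on T1, -0.013 on T2 and 0.39 on T3 (mean 0.13 ± 0.23, adjusted p = 0.49), so that T3 alone set its mean, which was -0.0020 without that array. Atp6v1e1, of the peripheral stalk that holds the head still, had -0.025, 0.16 and 0.23 (mean 0.12 ± 0.13, adjusted p = 0.469), and its 2 spots gave means of 0.083 and 0.16.

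Of the V0 sector only Atp6v0d1, the d subunit that couples the proton ring to the central stalk and whose promoter is printed above, was measured in all pairs. It had -0.019, -0.40 and -0.095 (mean -0.17 ± 0.20, adjusted p = 0.348), the single pump gene below 0 on every array, with T1 close to 0. The accessory subunit Atp6ap2, also known as the prorenin receptor, had 0.034, -0.027 and 0.040 (mean 0.016 ± 0.037, adjusted p = 0.934), the smallest spread of the 6. Atp6v0a1, a proton-channel subunit, and Atp6v1h, a regulatory V1 subunit, gave values on T1 only, 0.12 and 0.26 at the 2 spots of Atp6v0a1 and 0.15 for Atp6v1h.

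Of the 7 cathepsins 0 rose and 0 fell in the limma fit, against 4.91% of all genes called. An unadjusted p under 0.05 was found for Ctsb and Ctse (28.6%), near the 28.1% of all genes. The median of the 7 was 0.033, and array by array it was 0.11, -0.023 and 0.064. Without T1 that median was -0.038. The 7 split into proteases above 0 in every pair (Ctsb, Ctse), 1 below 0 in every pair (Ctsh) and 4 with mixed signs.

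Ctsb, a cysteine protease of lysosomes, had 0.22 on T1, 0.33 on T2 and 0.48 on T3, all above 0, with a mean of 0.34 ± 0.13 (SD, n = 3; 1.27-fold; 95% interval 0.10 to 0.58). It missed the threshold (adjusted p = 0.0878; unadjusted p = 0.0107 in limma's fit) and passed without T1 (mean 0.41, adjusted p = 0.0365, in the fit that called 18% of all genes) or at a threshold of 0.10, which calls 14.4% of all genes. Its 2 spots, made from different sequences, had means of 0.38 and 0.31. On T2 these spots read 0.48 and 0.18, whereas on T1 both read 0.22.

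Ctse, an aspartic protease known from red cell precursors and immune cells, had 0.11, 0.52 and 0.23 (mean 0.29 ± 0.21, 1.22-fold, adjusted p = 0.154). All pairs were above 0, with T2 more than the other two together, and its 2 spots, which carry the same sequence, had means of 0.32 and 0.26. The 6 measured erythroid markers had array medians of 0.11, 0.38 and 0.33, and 4 of 6 means above 0. The part of red cell precursors in the Ctse values was not tested.

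On the negative side, Ctsh, a cysteine aminopeptidase, had -0.038, -0.45 and -0.25 (mean -0.25 ± 0.21, adjusted p = 0.198), and its 2 spots of 1 sequence had means of -0.22 and -0.28. Within each array Ctsb exceeded Ctsh, by 0.26, 0.78 and 0.73, a pair picked out after the values were seen and not tested. Ctsl, a lysosomal endopeptidase, had 0.023, -0.66 and -0.040 (mean -0.23 ± 0.38, adjusted p = 0.342), with a mean of -0.0085 without T2.

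The other cathepsins lay near 0. Ctsd, the main aspartic protease of lysosomes, had 0.16, -0.023 and 0.16 (mean 0.10 ± 0.11, adjusted p = 0.533), and Ctsc, which activates granule serine proteases, had -0.022, -0.14 and 0.064 (mean -0.032 ± 0.10, adjusted p = 0.854). Ctsg, a serine protease of neutrophil granules rather than of lysosomes, had 0.33, 0.024 and -0.25 (mean 0.033 ± 0.29, adjusted p = 0.888), with the pairs on both sides of 0. The other 4 measured neutrophil markers had array medians of 0.64, 0.15 and -0.11, the same order of arrays as Ctsg. Itgam, Mmp8 and Prtn3 kept that order, while Mmp9 was lowest on T2 (0.676, -0.725 and -0.154). The part of neutrophils in the Ctsg values was not tested.

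Lamp2, a heavily glycosylated protein of the lysosomal membrane, was the single LAMP gene measured, at 0.19 on T1, -0.42 on T2 and -0.12 on T3 (mean -0.12 ± 0.30, adjusted p = 0.58). Its sign differed between pairs, and the mean was 0.035 without T2.

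**Figure D3:**
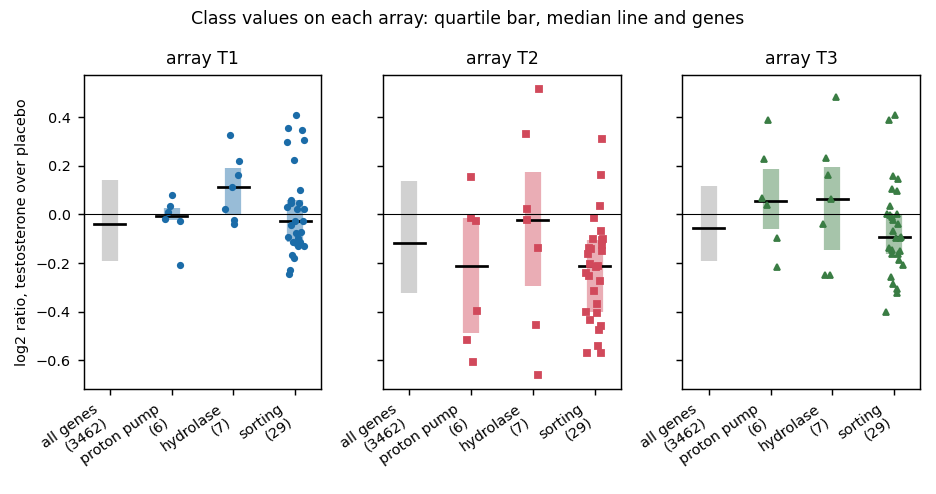
Log2 ratio of testosterone over placebo (y axis) for all 3462 genes and for the proton pump, hydrolase and sorting classes (x axis, gene number in brackets) on T1, T2 and T3: bars span the quartiles, lines mark medians and points are genes. The sorting medians are -0.029, -0.21 and -0.094 in that order, and the hydrolase median lies above that of all genes on each array.

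Among the 29 sorting genes 0 rose and 0 fell, against 4.91% of all genes called. Of the 29 means 22 lay below 0. An unadjusted p under 0.05 was found for 7 (24.1%; 1 above and 6 below 0), against 28.1% of all genes (12% above and 16.1% below 0). The share of means above 0 was 24.1%, against 37.6% of all genes. Their median was -0.081, near the -0.071 of all genes. On T2 only 3 of 29 were above 0 (10.3%), against 13 on T1 (44.8%) and 9 on T3 (31%). One of the 29, Vps72, matches the symbol rule but encodes a subunit of a histone-exchange complex in the nucleus. It had -0.23, -0.43 and -0.094 (mean -0.25 ± 0.17, adjusted p = 0.175), and the median of the other 28 was -0.075.

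The ESCRT genes, whose products bud cargo vesicles into late endosomes, numbered 8, with 7 means below 0 and a median of -0.15 (-0.036, -0.21 and -0.19 by array). Of all genes 62.4% had a mean below 0. None of the 8 passed, against 4.91% of all genes called. Of the 8, 3 (37.5%) had an unadjusted p under 0.05, all below 0, against 28.1% of all genes (16.1% below 0). Vps25, the ESCRT-II subunit that recruits ESCRT-III, had -0.074 on T1, -0.57 on T2 and -0.31 on T3 (mean -0.32 ± 0.25, 1.25-fold, adjusted p = 0.14), the lowest mean of all 43. All pairs lay below 0, by widely different amounts, and without T1 it passed (mean -0.44, adjusted p = 0.0248), in the fit that called 18% of all genes.

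Chmp2b, an ESCRT-III filament subunit, had -0.17, -0.57 and -0.16 (mean -0.30 ± 0.23, adjusted p = 0.153), again with T2 lowest. Vps28, of ESCRT-I, had -0.045, -0.40 and -0.32 (mean -0.26 ± 0.19, adjusted p = 0.177), all below 0 with T1 close to it. The other 5 (Vps37a, Vps37c, Chmp3, Chmp4b and Vps4a, the ATPase that takes ESCRT-III apart) had means from -0.15 to 0.054, the highest being Vps37c at 0.41 on T1 and below 0 on T2 and T3.

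Of the clathrin adaptor genes, those of AP-1, which works between the Golgi and endosomes, had a median of -0.13 over 5 genes. Ap1m1, its widely expressed medium subunit, had -0.11, -0.31 and -0.29 (mean -0.24 ± 0.11, adjusted p = 0.172), below 0 in all pairs with a small spread. Ap1m2, the medium subunit known from epithelia, stood on the other side, at -0.029, 0.16 and 0.41 (mean 0.18 ± 0.22, adjusted p = 0.332), with T1 near 0.

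The 2 genes measured of AP-2, the adaptor of endocytosis at the cell surface, lay on opposite sides of 0 on every array. Ap2a2, its large alpha subunit, had 0.36, 0.31 and 0.098 (mean 0.25 ± 0.14, 1.19-fold, adjusted p = 0.16), the single sorting gene above 0 in all pairs. A second spot of Ap2a2, measured on T1 only, read 0.35 there. Ap2m1, the medium subunit, had -0.12, -0.41 and -0.15 (mean -0.22 ± 0.16, adjusted p = 0.21). The alpha subunit exceeded the medium subunit by 0.47 on T1, 0.71 on T2 and 0.25 on T3, a contrast picked out after the values were seen and not tested. The 3 AP-3 genes, of the adaptor that serves lysosome-related organelles, had means from -0.069 to 0.020.

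Retromer, which returns receptors from endosomes, was represented by Vps26b, Vps29 and Vps35, with a median of -0.081. Vps26b had 0.046, -0.47 and -0.26 (mean -0.23 ± 0.26, adjusted p = 0.257), while Vps35, the scaffold, had means between -0.14 and -0.019 at its spots and Vps29 a mean of 0.022. These subunits did not share a sign. Vps18 of the HOPS and CORVET tethers had a mean of -0.11 and Vps54 of the GARP tether -0.062, neither near the threshold (adjusted p = 0.486 and 0.716).

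Among the 5 sorting nexins the median was -0.058. Snx17, which rescues receptors from degradation, had -0.18 on T1, -0.46 on T2 and -0.16 on T3 (mean -0.27 ± 0.17, 1.20-fold, adjusted p = 0.158), below 0 in every pair and at both spots (means -0.31 and -0.23). Snx10, which osteoclasts need to resorb bone, had 0.31, -0.14 and 0.39 (mean 0.18 ± 0.29, adjusted p = 0.37), with T2 opposite to the other pairs. Snx3, Snx12 and Snx27 had means from -0.065 to -0.046, and Snx27 ranged most, from -0.54 on T2 to 0.22 on T1.

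How well a ratio repeats within an array could be read from the 13 genes with a pair of complete spots, 7 of them with the same sequence and 6 with different ones. Over the 39 pairs of values the median difference was 0.10 and the largest 0.39. The signs of the spot means matched for 9 genes and differed for 4 (Ap1s2, Ctsc, Ctsg and Snx3). For the 9 genes with like signs the spot means differed by 0.055 (Vps54) to 0.13 (Vps35). Among these 9, Ctsb, Ctse, Ctsh, Snx17 and Atp6v1e1 differed by 0.056 to 0.078.

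**Figure D4:**
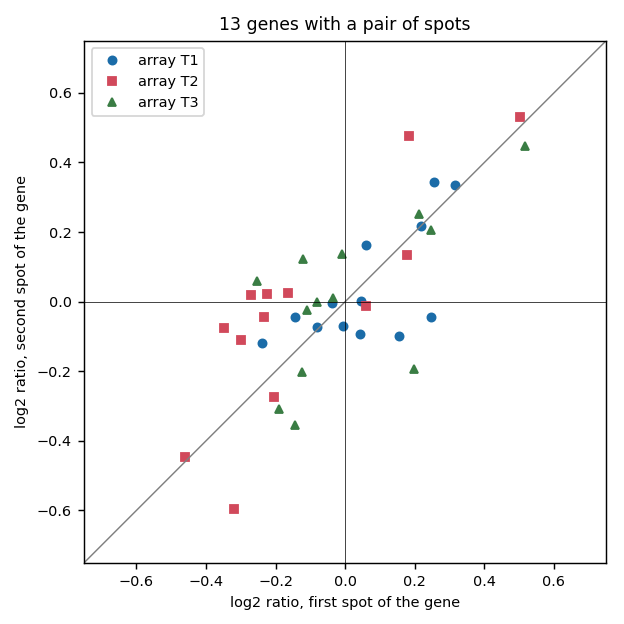
Log2 ratio at the first (x axis) against the second spot (y axis) of the 13 genes with 2 complete spots, for arrays T1, T2 and T3, with the line of equality. The 39 points scatter about the line with a median difference of 0.10, and the farthest pair differs by 0.39.

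Genes without a value on every array were not tested above, and no pattern could be drawn from them. Chmp7 had -0.44 on T1 and -0.23 on T2, Vps50 0.081 and 0.43 on the same arrays, and Vps51 -0.11 on T1 and 0.33 on T3. Snx33, a nexin with a membrane-binding domain, had values on T1 only, -0.78 and -0.55 at its 2 spots, farther from 0 than any of the 43 on that array. With genes on at least 2 arrays admitted, 53 genes of the rule were tested and 0 passed, against 3.8% of 4054 genes. A further 7 spots listed a gene of the rule among several genes and were left out.

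Neighbouring genes of the same pathways, from lists that do not overlap the 43, gave the same count of calls. It was 0 in each list by limma, against 4.91% of all genes called. Of 39 further hydrolases and activators 15 were measured, 2 with an unadjusted p under 0.05 (13.3%, against 28.1% of all genes). These were Sgsh, a heparan sulfate sulfatase (0.083, 1.02 and 0.65; mean 0.58 ± 0.47, adjusted p = 0.0776), and Gla, the alpha-galactosidase (0.27, 0.31 and 0.47; mean 0.35 ± 0.10, adjusted p = 0.0788). Both were above 0 in all pairs, Gla evenly and Sgsh mainly on T2 and T3. Array medians of the list were 0.061, -0.11 and 0.064.

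Of 27 listed membrane, ion transport and sorting receptor genes 9 were measured. Again 2 had an unadjusted p under 0.05 (22.2%, against 28.1% of all genes). Clcn7, the chloride-proton exchanger of lysosomes and the osteoclast border, had 0.31, 0.29 and 0.50 (mean 0.37 ± 0.12, adjusted p = 0.0702). Lamtor5, of the complex that anchors mTORC1 signalling to lysosomes, had -0.27, -0.36 and -0.14 (mean -0.26 ± 0.11, adjusted p = 0.153). These 2 kept opposite signs in every pair.

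Of 37 listed endosome genes outside the rule 19 were measured. An unadjusted p under 0.05 was found for 4 (21.1%, against 28.1% of all genes). Gga2, a Golgi adaptor that sorts hydrolase receptors, had -0.51, -0.46 and -0.32 (mean -0.43 ± 0.09, 1.35-fold, adjusted p = 0.0515), evenly below 0. Eea1, a tether of early endosomes, had 0.24, 0.77 and 0.42 (mean 0.48 ± 0.27, 1.39-fold, adjusted p = 0.0641). Gga2, Eea1, Clcn7, Sgsh and Gla all had a lower adjusted p than any of the 43. Of 18 listed autophagy genes 6 were measured, 1 with an unadjusted p under 0.05 (16.7%, against 28.1% of all genes). This was the initiating kinase Ulk1 (0.13, 0.41 and 0.30; mean 0.28 ± 0.14, adjusted p = 0.134). Next by p in that list was Wipi2 (-0.11, -0.32 and -0.21; mean -0.21 ± 0.11, adjusted p = 0.208).

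Markers of cells rich in lysosomes, and separately of skeletal muscle, gave values that also did not pass. The 7 measured monocyte and macrophage markers of 16 listed had medians of 0.20, 0.21 and 0.13 on T1, T2 and T3. By limma 0 were called, against 4.91% of all genes. An unadjusted p under 0.05 was found for 3 (42.9%), against 28.1% of all genes. The 5 osteoclast markers of 16 listed had medians of 0.095, -0.010 and 0.28. Of these 5, 0 were called, against 4.91% of all genes. Clcn7 alone (20%) had an unadjusted p under 0.05, against 28.1% of all genes. The 5 were Clcn7, Mmp14, Ostm1, Nfatc1 and Mmp9, and Acp5 and Ctsk, also listed, were not among them. Clcn7 and Ostm1 are also in the membrane and ion transport list and Mmp9 in the neutrophil list, so these medians are no reading of osteoclasts alone. Skeletal muscle markers, of tissue next to the bones, had medians of -0.018, -0.84 and -0.43 over 6 of 13 genes. Of these 6, 0 were called, against 4.91% of all genes. At an unadjusted p under 0.05 there were 4 (66.7%), all below 0, against 28.1% of all genes (16.1% below 0). The muscle median was lowest on T2, which gave the lowest value for 31 of the 43 genes (72.1%) and for 44% of all genes. The part of any of these cells in the lysosomal values was not tested.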

How the data were processed

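The deposited values are the authors' signed log ratios of 3 arrays, taken here as log2. Not given in the sources used here are their base, numerator, scaling, scanner, background treatment and filter; the direction follows the series' design text. All pairs of arrays correlated positively over spots (0.43, 0.48 and 0.73), so no sign was turned, and nothing was normalized further (column medians 0.0070, -0.062 and -0.025). Of the spots, 8050 had 1 annotated gene, 672 several and 2830 none. Entrez IDs matched 7880 spots to current symbols of RefSeq (GRCm38.p6), and 66 control or non-mouse spots stayed out. Complete spots were averaged per gene and the mean tested against 0 with limma 3.58.1 (lmFit, eBayes; R 4.3.3), two-sided and adjusted by Benjamini-Hochberg over 3462 genes. The small number of arrays limits the precision. The script was tested on simulated data.

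The members and lists were chosen with earlier results of these data known. Values on each array are given for members past the threshold, the 6 of smallest p and the extremes of each class, and the 2 of smallest p per pathway list. Ctsg, Vps28, Ap2m1, Vps26b, Ap1m2, Snx10 and genes with incomplete values were added after their values were seen. The alternatives turned each array's sign, left each array out, added a dye term, centred or also scaled the arrays, admitted genes on 2 arrays, used robust eBayes, a threshold of 0.10, every present spot, single spots or symbols as annotated.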

Additional observations from a re-analysis of the deposited data

How the results depend on the processing

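The count of 0 called among the lysosome, pump and sorting genes was the same under all alternatives run except 2. Some of these could hardly give another count. With a sign turned 0 of all genes were called, and without T2 or T3 only 1.01% and 0.953%. A threshold of 0.10 called 1 (Ctsb, a hydrolase, higher). Leaving out each array in turn gave 0 to 3, the 3 being Ctsb, Atp6v1b2 and Vps25 without T1 (1 higher and 2 lower; 1 in each of the pump, hydrolase and sorting classes, whose ranges were 0 to 1), which is 6.98% of 43 in a fit that called 18% of all genes. Calls among all genes, 170 as reported, numbered 0 with the sign of T1, T2 or T3 turned, 385 with a dye term, 61 after median centring, 297 after centring and scaling and 498 at a threshold of 0.10, and ranged from 33 (without T3) to 623 (without T1) on leaving out an array. Calls in the other pathway lists numbered 3 with a dye term (Eea1, Gga2 and Sgsh), 1 after centring and scaling (Eea1) and 5 at a threshold of 0.10, and ranged from 0 to 5 on leaving out an array, the 5 (Clcn7, Eea1, Gga2, Gla and Sgsh) without T1.

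With T2 turned, which exchanges treatment and dye effect, the median of the members was 0.060, of the pump genes 0.11 and of the sorting genes 0.048, and 27 of 43 members changed sign. These were among the genes given in detail Ctse (-0.057), Ctsh (0.055), Ctsl (0.21), Ctsc (0.060), Lamp2 (0.16), Atp6v1b2 (0.16), Atp6v1f (0.13), Atp6v0d1 (0.094), Vps25 (0.062), Chmp2b (0.081), Snx17 (0.038), Vps72 (0.036), Vps28 (0.011), Ap2m1 (0.047) and Vps26b (0.088), with Sgsh (-0.097), Eea1 (-0.038) and Wipi2 (0.0023) outside the members. With T1 turned Ctsd (-0.0087), Ctsg (-0.18), Atp6ap2 (-0.0070) and Snx10 (-0.021) changed sign. With T3 turned Ctsd (-0.0067), Atp6v1e1 (-0.032), Atp6v1d (-0.13), Atp6ap2 (-0.011), Ap1m2 (-0.092) and Snx10 (-0.075) did. Ctsc was 0.0053 after median centring and 0.018 after centring and scaling. The hydrolase median was -0.018 with T1 turned and -0.0067 with T3 turned, and the pump median 0.016 over single spots. On leaving out an array the hydrolase median ranged from -0.038 to 0.071; of the genes given in detail Ctsg (-0.11 to 0.17), Ctsc (-0.080 to 0.021), Lamp2 (-0.27 to 0.035) and Atp6v1d (-0.0020 to 0.20) changed sign, Ctsg without T1, Ctsc and Lamp2 without T2 and Atp6v1d without T3. The cause of these changes was not tested. Each ratio already compares the 2 mice of 1 pair, so the test of the ratios against 0 is itself the paired analysis. With a single group there was no further pairing to add.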
